A study of Mus musculus with 24 samples.

Results

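The 10 genes described here encode the muscle acetylcholine receptor and the proteins that gather it at the neuromuscular junction, the synapse between a motor nerve and a muscle fibre. They were Chrna1, Chrnb1, Chrnd, Chrne, Chrng, Musk, Rapsn, Dok7, Lrp4 and Agrn, 5 receptor subunits and 5 clustering genes, and all 10 were found by symbol among the 45777 genes of the table. They were chosen by family and from their levels in LL37-treated against control mice, in skin and in dorsal root ganglia (DRG, where the cell bodies of sensory neurons lie). For these treatment comparisons the values are therefore a description and carry no p-value. RNA sequencing covered 24 libraries in 4 groups of 6 (skin and DRG, each from control and from model mice), all from female BALB/c mice aged 6 weeks. Model mice had received the human cathelicidin peptide LL37 into the skin (320 µM in 40 µL, 2 doses a day for 2 days), a way to induce rosacea-like inflammation. The series' design also names oral gabapentin at 100 mg/kg from day 3 and DRG collection on day 4. Which animals had the drug, what control mice were injected with, and when skin was taken are not given in the sources used here, so the drug and the peptide cannot be told apart. Nor is it stated that each library is a separate animal, and p-values then reflect just the spread between libraries, which may be technical.

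The muscle receptor is a pentamer of alpha, beta and delta subunits with a gamma subunit in fetal, denervated or regenerating muscle, which an epsilon subunit replaces in adult innervated muscle. Agrin, released by the nerve, binds LRP4 on the muscle fibre, which activates the kinase MuSK. The adaptor DOK7 sustains that activity and rapsyn anchors the receptors in clusters. Mouse skin contains a thin sheet of striated muscle, the panniculus carnosus, under the dermis.

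The fetal and adult subunit genes differed in skin, so the stretches before their start sites are shown here, with that of Chrna1, which like Chrng was higher in all model skin libraries. The sequences are from RefSeq (GRCm38.p6), which held a promoter for 7 of the 10 members. They end before the outermost annotated exon, and capitals mark each E-box (CANNTG, the class of site that myogenic factors bind) and each N-box core (CCGGAA, known from genes expressed at synapses), searched on both strands.
Chrng (chr1:87205561-87205809, plus strand): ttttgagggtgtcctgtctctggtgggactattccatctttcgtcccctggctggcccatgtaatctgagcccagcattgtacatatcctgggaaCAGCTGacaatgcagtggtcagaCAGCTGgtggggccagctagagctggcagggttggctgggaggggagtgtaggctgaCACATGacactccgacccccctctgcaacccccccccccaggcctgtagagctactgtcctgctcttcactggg
Chrna1 (chr2:73580339-73580588, minus strand): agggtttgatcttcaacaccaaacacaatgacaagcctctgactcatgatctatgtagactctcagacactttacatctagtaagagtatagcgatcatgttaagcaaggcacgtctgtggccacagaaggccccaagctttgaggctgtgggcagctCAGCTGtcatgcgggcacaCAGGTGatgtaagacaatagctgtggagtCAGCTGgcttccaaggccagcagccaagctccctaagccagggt
Chrne (chr11:70619217-70619444, minus strand): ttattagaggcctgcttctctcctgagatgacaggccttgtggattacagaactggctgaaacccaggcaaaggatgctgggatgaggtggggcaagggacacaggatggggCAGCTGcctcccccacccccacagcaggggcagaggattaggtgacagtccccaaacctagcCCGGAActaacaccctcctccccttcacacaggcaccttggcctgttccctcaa

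In the 250 bases before the start, Chrng and Chrna1 each held 3 E-boxes, of which 2 had the palindromic form CAGCTG, while Chrne held 1 E-box, of that form, and 1 N-box core. The palindromic E-boxes lay 155 and 132 bases before the start in Chrng and 92 and 44 bases before it in Chrna1. In Chrne the E-box lay 138 and the N-box core 76 bases before the start. Distances are counted from the listed start of each promoter, and the 228 bases printed for Chrne stop short of that start. Of 32851 mouse promoters with the same window, 12.2% held 3 or more E-boxes, 1.26% held 2 or more of the palindromic form and 12% held the N-box core. The palindromic matches are also counted as E-boxes. Chrnb1 and Musk also held 3 E-boxes each, and Dok7 and Agrn, with 2 listed starts each, held at most 1 at either start. A match is a run of letters in this window and does not show that a factor binds there.

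Total counts ranged from 45238735 to 68396846 per library. Levels are CPM, each count as a share of its library total, scaled within each tissue by TMM factors and given as mean ± SD over 6 libraries. A gene is called where the quasi-likelihood (QL) test of edgeR, run over all genes, gave it a Benjamini-Hochberg adjusted p under 0.05. The tissues carried the markers of their labels: in control libraries all 10 keratinocyte markers and all 15 mature muscle markers were higher in skin and all 10 sensory neuron markers and all 10 Schwann cell markers were higher in DRG (edgeR QL). Over all genes 83.3% were called, 41.4% as higher and 42.0% as lower in skin. Some markers, such as Flg and Dsg3 with no counts in control DRG, passed the filter on low counts only through the tissue where they are high. These counts therefore only describe the tissues. The muscle content of skin was uneven. The 15 mature markers summed to 4108 to 15690 CPM in control libraries and 1572 to 15630 CPM in model skin, with skin control 2 and skin model 4 the highest. These bulk libraries cannot tell fewer muscle cells from less RNA per cell.

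In model skin the fetal receptor subunit and its partners were higher than in control skin, and the adult subunit overlapped its controls. Chrng (gene 11449, chromosome 1, 87205811 to 87211835, GRCm38) had no counts in any of the 6 control libraries, which allows up to 0.0094 CPM for the group (3 counts, counting error only). In model skin it was at 2.08, 3.53 and 7.30 CPM (lowest, median and highest), from 106 to 486 counts per library. All model libraries lay above all controls, and the mean of 4.05 ± 1.92 CPM was at least 431-fold higher than that floor.

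Chrnd (gene 11447, chromosome 1, 87190597 to 87200070), the delta subunit, lies 5740 bases from Chrng on the same strand. Its level was 0.112, 0.244 and 0.765 CPM in control skin and 1.58, 3.40 and 7.75 CPM in model skin (lowest, median and highest). The groups did not overlap, and the fold was 12.9 (log2 3.69). Chrna1 (gene 11435, chromosome 2, 73563281 to 73580338), the alpha subunit that carries most of the acetylcholine binding site, was at 0.920, 1.49 and 3.55 CPM in control libraries and 5.04, 9.04 and 20.1 CPM in model skin. These groups did not overlap either, and the fold was 5.44 (log2 2.44).

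Chrnb1 (gene 11443, chromosome 11, 69784036 to 69795966), the beta subunit, differed less. It was at 5.88 ± 1.12 CPM in control libraries and 9.80 ± 2.97 CPM in model skin, 1.67-fold higher, with 4 of 6 model libraries above every control. Chrne (gene 11448, chromosome 11, 70614883 to 70619213), the adult epsilon subunit, was at 0.270, 0.556 and 1.30 CPM in control libraries and 0.111, 0.440 and 1.89 CPM in model skin. Here 1 model library lay above all controls and 3 lay below them, so the model group was wider than the control group on both sides. Its fitted log2 fold change of 0.18 took either sign with a library left out, from -0.43 to 0.54. Chrne overlaps a gene on the opposite strand, 4930544D05Rik, which had 0 to 6 counts per library, and the sources used here do not give the strand setting of the counting.

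**Figure D1:**
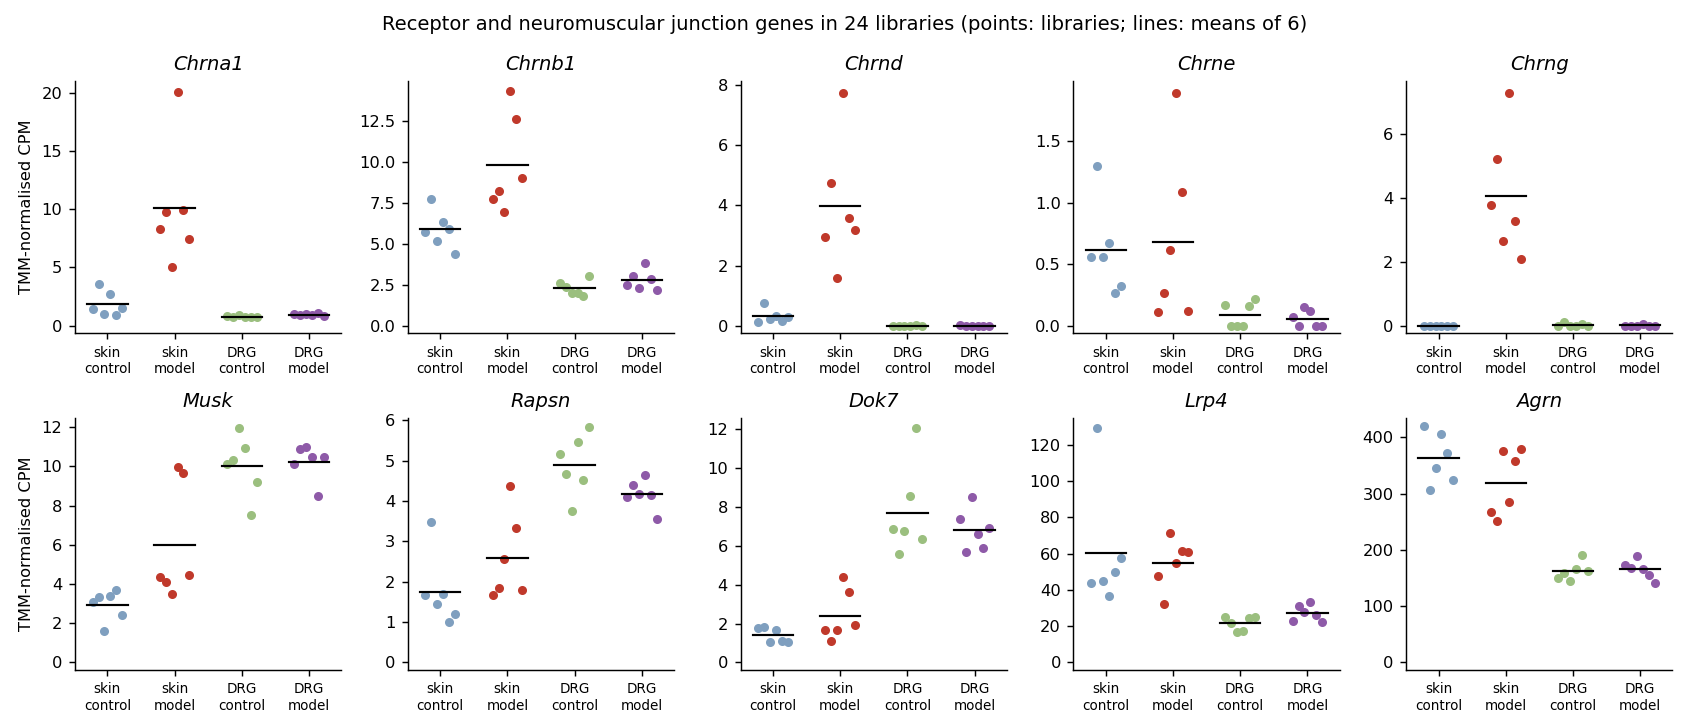
TMM-normalised CPM (vertical axis, linear, a scale of its own in each panel) of the 10 genes in the 24 libraries, with 1 point per library and a line at each group's mean of 6. Chrng sits at 0 in all control skin libraries and between 2.08 and 7.30 CPM in model skin, while Chrne in model skin spreads to both sides of its controls; Musk, Rapsn and Dok7 have their highest means in DRG.

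Set side by side on a scale that divides by transcript length (the deposited TPM), gamma outweighed epsilon in every model library and was at 0 in every control. Chrng made up 0% of the summed Chrng and Chrne TPM in all 6 control libraries and 72.2 to 97.2% in the 6 model libraries, at 85.5 ± 10.9%. Mean TPM in model skin was 4.55 ± 2.37 for Chrng, 4.998 ± 2.78 for Chrna1 and 2.87 ± 1.65 for Chrnd, against 0.913 ± 0.978 for Chrne. The ratio of Chrna1 to Chrnd TPM was 3.19 to 8.99 in control and 1.42 to 2.199 in model skin, and that of Chrna1 to Chrnb1 was 0.0767 to 0.228 in control and 0.361 to 0.677 in model skin. Both ratios separated the groups without overlap. The Chrng share was highest in skin model 1, 2 and 6, at 97.2, 94.4 and 93.7%, which were also the model libraries with the lowest mature muscle sums, at 1966, 1572 and 4159 CPM. Chrne had only 5, 13 and 6 counts in these libraries, so their shares rest on few counts. Chrng itself was lowest in skin model 6, at 2.37 TPM, so a high share there does not mean more Chrng. In skin model 3, 4 and 5 the share was 78.4, 76.7 and 72.2% and the mature muscle sum 4485, 15630 and 9774 CPM.

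**Figure D2:**
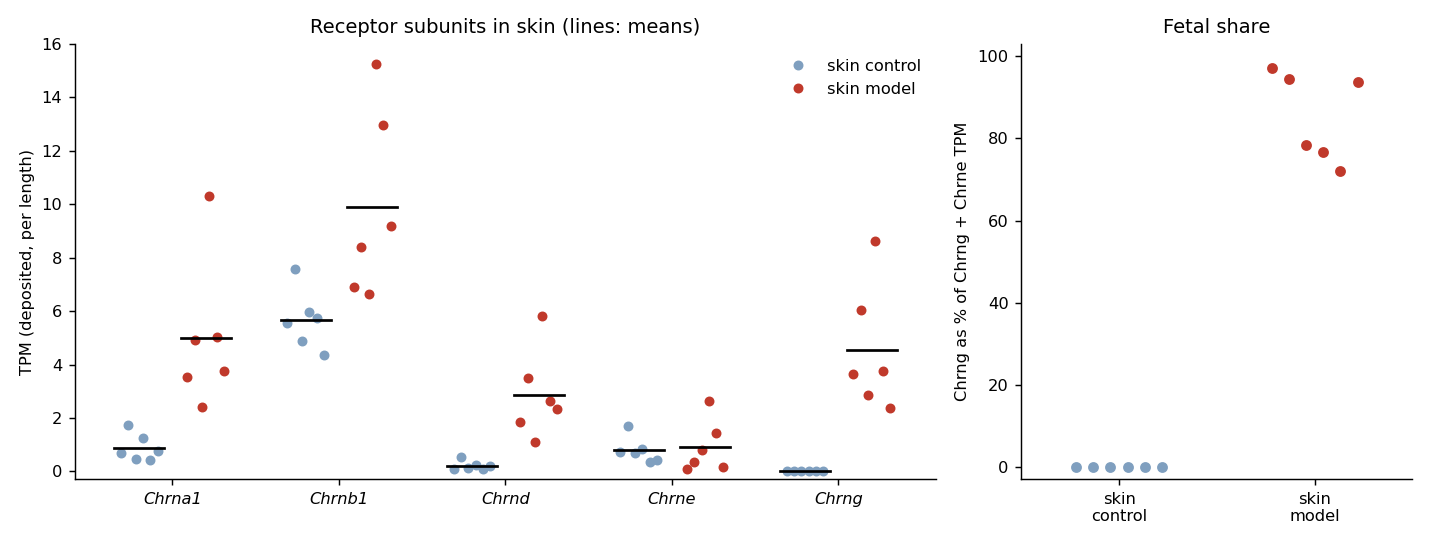
Left: deposited TPM (per transcript length) of the 5 receptor subunit genes in control and model skin, with 1 point per library and lines at the means. Right: Chrng as a percentage of Chrng plus Chrne TPM, which is 0% in the 6 control libraries and 72.2 to 97.2% in the 6 model libraries.

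Of the clustering genes, Musk stood highest against its controls and the upstream ligand and co-receptor overlapped theirs. Musk (gene 18198, chromosome 4, 58285729 to 58377848), the receptor kinase, was at 1.58, 3.23 and 3.70 CPM in control libraries and 3.49, 4.40 and 9.99 CPM in model skin, 2.06-fold higher, with 5 of 6 model libraries above every control. Dok7 (gene 231134, chromosome 5, 35056571 to 35087839), the MuSK adaptor, was at 1.41 ± 0.384 and 2.40 ± 1.31 CPM, with 3 of 6 model libraries above every control. Rapsn (gene 19400, chromosome 2, 91035472 to 91045729), which encodes rapsyn, was at 1.75 ± 0.892 and 2.60 ± 1.07 CPM, with 1 of 6 above every control. Rapsn overlaps Gm13778 on the opposite strand, and the groups of both Rapsn and Dok7 overlapped.

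Lrp4 (gene 228357, chromosome 2, 91457456 to 91513901), the agrin receptor, was at 36.8, 47.5 and 129 CPM in control libraries and 32.2, 58.0 and 71.5 CPM in model skin. The highest control value, 129 CPM, was skin control 2, and without that library the log2 fold change went from -0.14 to 0.23. Agrn (gene 11603, chromosome 4, 156165290 to 156197533) was the most abundant member by TPM in all groups, and in CPM it was at 363 ± 45.1 CPM in control libraries and 320 ± 58.0 CPM in model skin, and 3 of 6 model libraries lay below every control. Skin keratinocytes and other epithelia also make agrin and LRP4, and their part in these levels was not tested.

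In edgeR's QL test Chrng, Chrnd, Chrna1, Chrnb1 and Musk were called as higher in model skin, 5 of 10 members, against 19.9% of 19526 genes called in either direction and 14.1% called as higher. Groups did not overlap for 3 of 10 members, all higher, against 8.69% of genes in either direction and 7.25% higher. The choice of members used this contrast, and Chrng and Chrnd passed the filter on low counts only through the model libraries, so nothing is read from these counts. The median log2 fold change of the 10 was 0.75, against -0.02 over all genes tested. Without skin control 3 or 6 the count was 3 (Chrng, Chrnd and Chrna1). The call of Musk was also lost without skin control 1, 4 or 5 and without skin model 4 or 5.

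**Figure D3:**
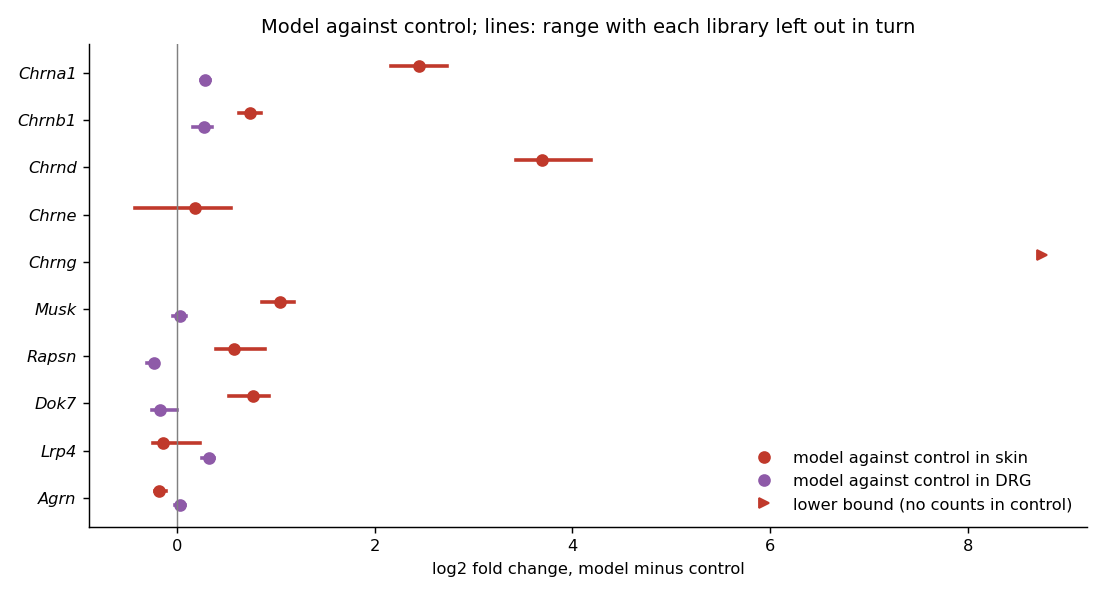
Log2 fold change (model minus control) of each gene in skin and in DRG as points, with lines for the range when each library was left out in turn, and an arrowhead for Chrng in skin, whose fold has only a lower bound (431-fold). Chrna1, Chrnd and Chrng lie to the right in skin, at log2 2.44 or more, while the DRG values lie between -0.23 and 0.32; Chrnd, Chrne and Chrng had too few counts in DRG for a fold.

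The receptor genes were also compared with the muscle RNA in the same library, a comparison added after the values were seen. Per 1000 CPM of the 15 mature muscle markers, Chrna1 was at 0.181 to 0.379 CPM in control and 1.02 to 6.24 CPM in model skin, and Chrnd at 0.0151 to 0.0679 and 0.353 to 3.03 CPM. On this scale Dok7, at 0.117 to 0.252 CPM in control and 0.283 to 0.850 CPM in model skin, no longer overlapped between groups, and 5 of 6 model libraries exceeded every control for each of Chrnb1, Musk and Rapsn. Chrne, at 0.0546 to 0.102 and 0.0283 to 0.170 CPM, still overlapped. The divisor itself was lower in model skin, with a median of 4322 against 6415 CPM, and Lrp4 and Agrn, which were not higher in CPM, also had 4 of 6 model libraries above every control on this scale. With the summed mature markers as a covariate the log2 fold changes were 2.74 for Chrna1, 3.96 for Chrnd, 0.89 for Chrnb1, 1.19 for Musk, 0.89 for Rapsn, 0.98 for Dok7 and 0.43 for Chrne.

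**Figure D4:**
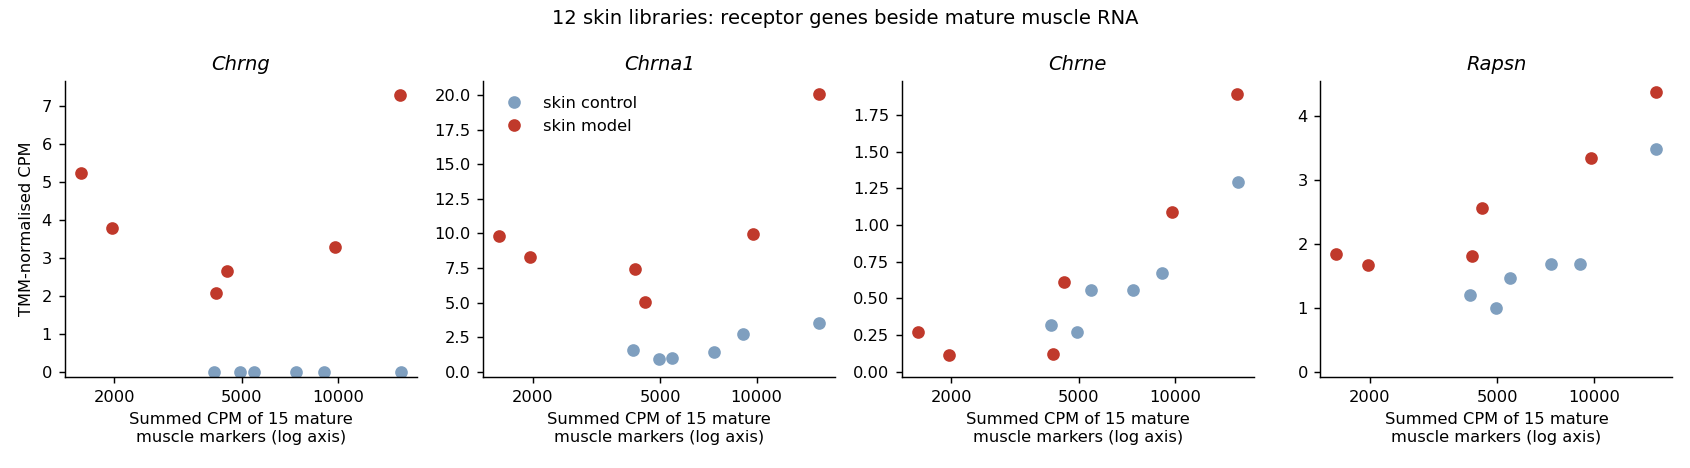
TMM-normalised CPM (vertical axis, linear) of Chrng, Chrna1, Chrne and Rapsn in the 12 skin libraries against the summed CPM of 15 mature skeletal muscle markers (horizontal axis, log scale), with 1 point per library. Chrne and Rapsn are highest in the 2 libraries richest in muscle, skin control 2 and skin model 4, while Chrng is at 0 in every control library whatever its muscle content.

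Many genes of forming muscle rose in model skin, and markers of mature fibres did not pass. Of 12 myogenic regulators and fusion genes 7 rose and none fell in model skin, beside 14.1% of all genes called as higher. They were Myod1, Myog, Myf5, Pax7, Cdh15, Mymk and Mymx, with a median log2 fold change of 1.96 over the 12, against -0.02 over all genes tested. Myog, a transcription factor of differentiating myoblasts, rose 18.4-fold, from 0.992 ± 0.872 to 18.2 ± 10.2 CPM, and Myod1, the myogenic determination factor, 7.002-fold, from 0.483 ± 0.368 to 3.38 ± 1.74 CPM (adjusted p from edgeR 0.000553 and 0.0020, respectively). Mymx, which encodes the fusion peptide myomixer, rose from 0.0647 ± 0.0475 to 2.27 ± 1.204 CPM. Mymk and Mymx had at most 8 counts in any control library. The lowest counts in control skin were 6 for Myod1 and 5 for each of Myf5 and Pax7. All of these genes passed the filter on low counts only through the model libraries. Nothing is therefore read from their calls or from the count of 7. The list was also chosen with earlier results of these data known. Of the 7 embryonic or neonatal contractile genes tested, of 8 in the list, 5 rose, and the cardiac and embryonic actin Actc1 went from 0.656 ± 0.643 to 17.8 ± 8.25 CPM. None of the 15 mature muscle markers was called in edgeR's QL test (1 at an unadjusted p under 0.05), with a median log2 fold change of -0.29.

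Of 16 genes known to respond when muscle loses its nerve, 6 rose and 1 fell in model skin, where 19.9% of all genes were called in either direction and 14.1% as higher, with a median log2 fold change of 0.83. The 6 were Myog, Myh3, Ncam1, Gdf5, Mybph and Hdac9, and 3 of these also stand in another list used here. The count does not consider in which direction each gene responds to loss of the nerve, and such a loss was not tested. Ncam1, an adhesion molecule that spreads over denervated and regenerating fibres, rose 2.27-fold, from 8.31 ± 2.21 to 18.9 ± 5.98 CPM (edgeR adjusted p = 0.00269). Gdf5, a growth factor of the BMP family, went from 0.0676 ± 0.0719 to 0.586 ± 0.262 CPM. With at most 9 counts in any control library, Gdf5 passed the count filter only through the model libraries, so nothing is read from its call. The muscle ubiquitin ligase gene Fbxo32, known for its increase in muscle wasting, was the 1 that fell, 1.33-fold (edgeR adjusted p = 0.0498). It was named after its value was seen.

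Among 36 other genes of the junction, 4 rose and 4 fell in model skin, 8 of 36 or close to the 19.9% of all genes, with a median log2 fold change of -0.11. The 4 that rose were Ncam1 and the basement membrane genes Nid2, Lama4 and Hspg2, which vessels also express. Nid2, nidogen 2, went from 17.1 ± 2.07 to 37.9 ± 12.2 CPM (edgeR adjusted p = 0.00239). The 4 that fell were Erbb2, Erbb3, Nrg2 and Col4a5, named after their values were seen. Erbb2 and Erbb3, receptors of the neuregulins, fell 1.42-fold and 1.37-fold (adjusted p from edgeR 0.0152 and 0.0239, respectively). Colq, the collagen tail that anchors acetylcholinesterase at the junction, was at 1.05 ± 0.680 and 2.46 ± 1.53 CPM and the esterase gene Ache at 15.4 ± 13.5 and 12.4 ± 3.89 CPM (adjusted p from edgeR 0.0684 and 0.635, respectively).

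Of the 8 genes for acetylcholine synthesis, transport and breakdown, 6 were tested in skin and 1 was called, the choline transporter Slc44a1, which fell 1.52-fold. Over all genes in skin, 19.9% were called in either direction and 14.1% as higher, which is also the background of the lists that follow. Of 11 neuronal nicotinic subunits only 3 had enough counts in skin, and Chrna4 fell, from 1.28 ± 0.941 to 0.361 ± 0.219 CPM (edgeR adjusted p = 0.0332). None of the 3 muscarinic receptors tested was called (edgeR QL, 2 at an unadjusted p under 0.05). Of 10 Schwann cell markers 1 rose, Pmp22. None of the 10 keratinocyte markers and not the 1 spinal motor neuron marker tested was called (edgeR QL, 0 and 0 at an unadjusted p under 0.05). All 10 monocyte and macrophage markers rose, with sums of 203 to 528 CPM in control libraries and 721 to 2230 CPM in model skin, and their part in the receptor values was not tested.

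In DRG none of the members was called between model and control. Of the 10, 7 had enough counts to be tested, 0 passed in edgeR's QL test (2 had an unadjusted p under 0.05), against 0.0974% of 19509 genes, and 0 passed in DESeq2, which called 135 of 18650 genes. The groups overlapped for all 10 members, against 0.528% of genes without overlap. These counts lie near such low shares, and the choice of members used this contrast too, so nothing is read from them. Lrp4 was at 17.0, 23.2 and 25.3 CPM in control libraries and 22.2, 26.9 and 33.4 CPM in model DRG, with 4 of 6 model libraries above every control and a fold of 1.25. Chrna1 was at 0.722, 0.754 and 0.919 CPM in control libraries and 0.844, 0.930 and 1.06 CPM in model DRG, a fold of 1.21. Every model library exceeded the control mean for both genes, and every one lay below it for Rapsn, which was at 4.90 ± 0.745 and 4.17 ± 0.358 CPM. Musk was at 10 ± 1.53 and 10.2 ± 0.920 CPM, Dok7 at 7.70 ± 2.34 and 6.83 ± 1.04 CPM, Chrnb1 at 2.30 ± 0.465 and 2.78 ± 0.598 CPM and Agrn at 162 ± 16.1 and 165 ± 16.04 CPM.

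The subunits Chrng, Chrnd and Chrne were at or near the counting limit in DRG. Chrng had 10 counts in the 6 control and 3 in the 6 model libraries together, Chrnd had 2 in each group, and Chrne had 33 and 20, with 3 libraries of each group at 0. The stress gene Gadd45a was the only one called of 16 denervation-responsive genes, 13 of them tested, beside 0.0974% of all genes. Gadd45a was at 12.2 ± 0.781 in control and 19.8 ± 1.94 CPM in model DRG (edgeR adjusted p = 0.000547). It is not specific to muscle, and Myog had no counts in any DRG library of either group. Of the 36 other junction genes none was called (edgeR QL, 9 at an unadjusted p under 0.05), and none of the 15 mature muscle, 7 tested developing muscle or 5 tested myogenic genes was (edgeR QL, 0 at an unadjusted p under 0.05). The share of all genes at such an unadjusted p was not taken, so nothing is read from the 9.

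The choice of members did not use the difference between the tissues of control mice, so it was tested. Chrna1, Chrnb1, Lrp4 and Agrn were higher in skin, and the 3 intracellular or kinase components of the clustering pathway were higher in DRG. Of the 10 members 8 were tested, among them Chrne, which passed the count filter only through skin, where it is high. Without Chrne, 7 of 7 were called, 4 as higher and 3 as lower in skin, against 83.3% of 20448 genes called in either direction, 41.4% as higher and 42.0% as lower. These 7 were also without overlap, against 69.6% of genes, so shares this high lie near the background. Folds came from a joint fit of the 12 control libraries, while the CPM levels were scaled within each tissue.

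Dok7 was at 5.57, 6.82 and 12.04 CPM in control DRG and 1.04, 1.39 and 1.83 CPM in control skin, 5.67-fold higher in DRG (log2 fold change of skin against DRG -2.50, SE 0.23, edgeR adjusted p = 2.77e-07). Musk was at 7.496, 10.2 and 11.96 CPM in control DRG, 3.56-fold above skin (log2 -1.83, SE 0.19, edgeR adjusted p = 1.16e-06). Rapsn was at 3.74, 4.91 and 5.82 CPM in control DRG, 2.93-fold above skin (log2 -1.55, SE 0.26, edgeR adjusted p = 8.27e-05). For these 3 genes every control DRG library lay above every control skin library. The 15 mature muscle markers summed to 43.9 to 220 CPM in control DRG, against 4108 to 15690 CPM in control skin. About 44.6 CPM of the mean DRG sum of 89.5 CPM was Pvalb, which proprioceptive neurons also express.

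In the other direction Agrn was 2.16-fold higher in skin than in DRG (log2 1.11, SE 0.10, edgeR adjusted p = 1.82e-07) and Lrp4 2.65-fold (log2 1.41, SE 0.27, edgeR adjusted p = 0.00029). Chrnb1 was 2.45-fold higher in skin (log2 1.29, SE 0.16, edgeR adjusted p = 5.42e-06) and Chrna1 2.27-fold (log2 1.19, SE 0.31, edgeR adjusted p = 0.00306). Chrne was 6.12-fold higher (log2 2.61, SE 0.71, edgeR adjusted p = 0.00407), but its difference follows in part from the count filter. Skin and DRG control libraries did not overlap for any of these 5 genes. Chrnd and Chrng were not tested: Chrnd had 95 counts over control skin and 2 over control DRG, and Chrng 0 and 10.

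Of the 36 other junction genes, 14 were higher and 16 lower in control skin than in control DRG, a share equal to the 83.3% of all genes. All 8 tested neuronal nicotinic subunits and all 5 muscarinic receptors were lower in skin, against 42.0% of all genes. Several of them, such as Chrna6 and Chrnb3 with no counts in control skin, passed the count filter only through DRG, where they are high. Nothing is therefore read from these counts. Of the 7 tested genes of acetylcholine metabolism 1 was higher and 4 were lower. Chrnb2, the beta subunit common in neuronal receptors, was at 107 CPM in DRG and 3.43 CPM in skin, and the esterase gene Ache at 64.0 ± 9.51 and 15.4 ± 13.5 CPM. In the same DRG libraries the muscle subunits Chrna1 and Chrnb1 were at 0.778 ± 0.0733 and 2.30 ± 0.465 CPM.

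**Figure D5:**
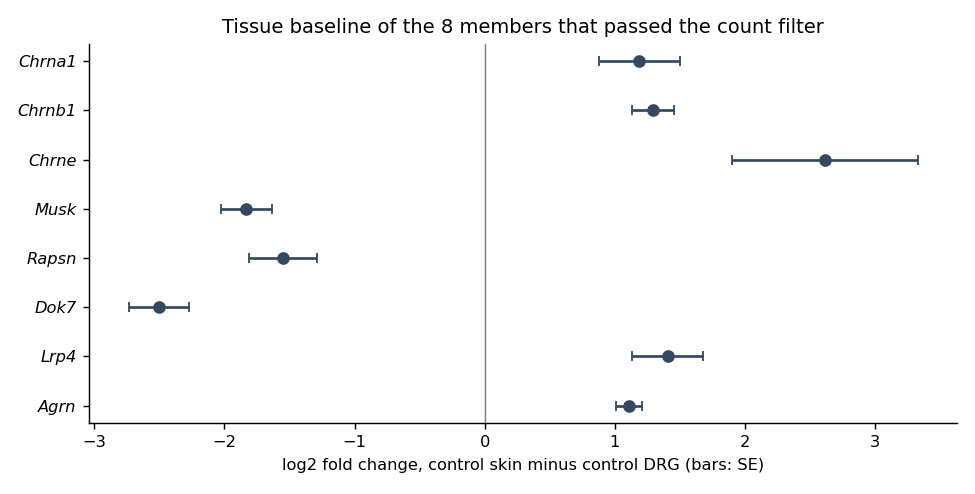
Log2 fold change of control skin against control DRG with its SE, for the 8 genes with enough counts, from edgeR's fit of 12 control libraries. Musk, Rapsn and Dok7 lie to the left (higher in DRG, log2 -1.55 to -2.50), and the 3 receptor subunits, Lrp4 and Agrn to the right (higher in skin, log2 1.11 to 2.61).

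The order of the members by deposited TPM differed between tissues as well. In control skin Agrn led at 102 ± 12.3 TPM, followed by Lrp4 at 15.7 ± 9.19 and Chrnb1 at 5.68 ± 1.10 TPM. Rapsn came next at 2.197 ± 1.17, then Dok7, Chrna1, Musk and Chrne at 1.01, 0.890, 0.855 and 0.783 TPM, and each of these overlapped its neighbour in the order. In model skin Chrna1 and Chrng came next after Agrn, Lrp4 and Chrnb1, at 4.998 and 4.55 TPM, and Chrna1 exceeded Chrng in 3 of 6 libraries, so they did not differ beyond their spread. Chrne was lowest there. Musk, at 2.38 ± 1.52 TPM in model and 0.855 ± 0.239 TPM in control skin, differed more on this deposited scale than in counts. In control DRG Agrn led at 54.9 ± 4.78 TPM, and Rapsn, Lrp4 and Dok7 followed at 7.37, 6.70 and 6.59 TPM with overlapping ranges. Musk at 3.52, Chrnb1 at 2.68 and Chrna1 at 0.440 TPM came after them.

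The genes closest to Chrng and Chrne over the 12 skin libraries were found by Pearson's r of log2 CPM after each group's mean was removed, among 14708 genes. For Chrne these were Scn4b, a sodium channel beta subunit (r = 0.94), Art5, an ADP-ribosyltransferase (0.94), Tcea3, a transcription elongation factor (0.925), Ddit4l (0.923) and Asb16 (0.922). Scn4b was at 30.5 CPM in control libraries and 15.3 CPM in model skin. For Chrng they were Exoc3l (r = 0.90), Gfra2, the neurturin co-receptor (0.851), Dynlt1a, a dynein light chain (0.839), Tmem176a (0.812) and Spidr (0.807). Chrng was at 0 in all controls, so its likeness rests on the 6 model libraries. These values describe the same 12 libraries, share their muscle content and depth, and are the highest of many, so no test goes with them.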

How the data were processed

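Whole-tissue RNA was sequenced from 24 libraries. Per the submitters' processing notes, bcl2fastq 2.20.0, Trimmomatic, HISAT2 2.1.0 and StringTie 2.1.3b were used with GRCm38 (mm10). The gene counts deposited by the authors are whole numbers that were not normalised, and how they were counted is unstated. The deposited TPM values, normalised by the authors to transcript length and library, served to compare levels between genes. The deposited FPKM values were not used.

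Counts were filtered with filterByExpr, scaled with TMM factors and tested with the QL test of edgeR 4.0.16 (R 4.3.3) over all genes, in 3 fits of 12 libraries: skin, DRG and control skin against control DRG. CPM factors were computed within each tissue, and the prior count was 2 for log2 values used in likeness. P-values were adjusted by the Benjamini-Hochberg method. The scripts were tested on simulated data. A count of 0 was given a limit of 3 counts over the group, and such limits cover counting error only. Of 60 pairs of libraries within groups none matched within sampling noise.

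The members and the lists of related genes were chosen with earlier results of these data known. The lists were other junction genes, acetylcholine metabolism, neuronal nicotinic and muscarinic receptors, denervation-responsive genes, myogenic regulators, developing and mature muscle, and markers of Schwann cells, keratinocytes, sensory neurons, macrophages and spinal motor neurons. All members are named, with up to 4 genes of a list by smallest unadjusted p and the 5 genes most like Chrng and Chrne. Where a called set is listed in full, the further names were chosen after their values were seen. Alternatives were DESeq2 1.42.0, other scaling factors and filters, limma 3.58.1 on log2(TPM + 1) and log2(TPM + 0.1), a replicate block, a joint fit of 24 libraries and each library left out in turn.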

Additional observations from a re-analysis of the deposited data

Results flagged for a closer look

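In 9 of 39 groups of 6 libraries with a measured member, 1 library lay far from the other 5 by Dixon's criterion on the gap to its nearest neighbour. The usual rate of about 1 in 20 holds for independent, normally distributed values. The groups here share libraries and some hold very low counts, so the count is not set against that rate. In control skin this was library 2 for Chrnd at 0.765 CPM (the others 0.112 to 0.337), Rapsn at 3.48 CPM (0.999 to 1.69) and Lrp4 at 129.4 CPM (36.8 to 57.6). It was also the control library with the most mature muscle RNA, and the part of muscle content in these values was not tested. In model skin it was library 4 for Chrna1 at 20.05 CPM (the others 5.04 to 9.93), the model library with the most mature muscle RNA.

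In DRG the gaps were small in size. Chrna1 was at 0.919 CPM in control library 3 (the others 0.722 to 0.791), and Musk at 8.47 CPM in model library 5 (the others 10.1 to 11). The others rest on 2 or 3 counts in 1 library with 5 at 0, and such a group meets the criterion at any count. They were Chrnd at 0.0316 CPM in control library 5 and 0.0293 CPM in model library 1, and Chrng at 0.058 CPM in model library 4.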

How the results depend on the processing

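Called members numbered 8 between the tissues of control mice, 5 in skin and 0 in DRG. Leaving out 1 library gave 8 to 8, 3 to 6 and 0 to 0, respectively, with 3 in skin without skin control 3 or 6, and 6 without skin control 2, where Rapsn was added. Under the other planned settings the counts were 6 to 10 between tissues, 5 in skin and 0 in DRG. The 8 other junction genes called in skin became 13 when all 24 libraries were fitted together, 12 in DESeq2, 6 to 7 in limma on TPM and 6 to 13 with 1 library left out, the most without skin control 2. The cause was not tested. With mature muscle as a covariate, added after the values were seen, they numbered 11. Over all genes, 3892 were called in skin (2564 to 6278 with 1 library left out) and 19 in DRG (135 in DESeq2, 6 with the block).

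No tested fold change between tissues changed sign in any of its settings. In skin the log2 fold change took the other sign in 3 of 21 settings for Chrne and 4 of 22 for Lrp4, and in DRG in 2 of 21 for Musk, 1 of 21 for Dok7 and 3 of 21 for Agrn. On log2(TPM + 1) the log2 fold changes in skin were 1.60 for Chrna1 and 1.59 for Chrnd, since the added 1 shrinks low values. In the tissue comparison the TPM scale moved the median of all genes from -0.01 to as low as -0.20. Members with 10 or fewer counts in each group (Chrnd and Chrng in DRG) allow no fold.

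The sample titles number the replicates of each group alike. The library names number control and model libraries differently, so same-numbered control and model libraries are matched by title only. Same-numbered libraries deviated together beyond a correlation of 0.1 in 0 of 6 pairs for skin and DRG controls. For control and model skin this was so in 1 of 6 pairs. Tissues of the same animal need not deviate together, so these values cannot show whether skin and DRG libraries with the same number share an animal. With the replicate number as a replicate block, 8 members were called between tissues, 5 in skin and 0 in DRG, as without it. Of the other junction genes in skin 8 were called with the block, 5 as higher and 3 as lower, with Colq in and Nrg2 out.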
